A study of Glycine max with 16 samples.

Results

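The pair of 1 Mb windows described here held the most LEC1 peaks in single lists from soybean embryos: positions 3000001 to 4000000 of chromosome 6 and the same positions of chromosome 11 (build Gmax275, the name the peak lists carry). Peaks of the 3 stage lists made with the antibody against recombinant protein were joined where they overlapped by at least 1 bp, and a joined region belonged to a window when its midpoint lay there. By this rule 506 of the 78759 merged regions of the series were members, 256 in the chromosome 6 window and 250 in the chromosome 11 window. Chromatin immunoprecipitation and sequencing (ChIP-seq) was done on embryos of soybean (Glycine max) cultivar Williams 82, and the labels name no transgene or treatment. The stages were cotyledon (COT, seeds of 2.5 to 3.5 mm), early maturation (EM, seeds of 6 to 7 mm) and mid-maturation (MM, seeds of 200 to 250 mg). The antibody against recombinant GmLEC1 was used at each stage and a second antibody, against a GmLEC1 peptide, at EM, with 2 ChIP and 2 input libraries in each of these 4 settings. An embryo holds many cell types, and the lists do not tell them apart.

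LEC1 (LEAFY COTYLEDON1) is a B subunit of nuclear factor Y, a complex that binds the CCAAT box of promoters once its B, C and A subunits have assembled. In plants it is made mainly in developing seeds, where it is known as a regulator of embryo identity, chloroplast formation and the build-up of storage protein and oil. A ChIP-seq peak marks a stretch of chromatin recovered more often with the antibody than in input. It is read as a site where LEC1 was close to DNA, directly or through partners, in enough of the tissue to be called.

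The windows were chosen by their number of peaks, and these numbers are given as a description only. In the chromosome 6 window 197 COT, 187 EM, 211 MM and 179 EM peptide peaks had their midpoint. In the chromosome 11 window the counts were 173 COT, 193 EM, 202 MM and 184 EM peptide peaks. The chromosome 6 window took place 1 of all 956 windows at COT, place 1 at MM, where the window at 5000001 to 6000000 of chromosome 17 also had 211, and place 2 in both EM lists. The chromosome 11 window took place 1 in both EM lists and place 4 at COT and MM. In merged regions the order was different: chromosome 6 came first with 256, then the chromosome 17 window with 251, then chromosome 11 with 250. The median of the 682 other windows with at least 20 regions was 112.

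The regions covered 105350 bp of the chromosome 6 window (10.5%) and 100550 bp of the chromosome 11 window (10.1%), against at most 98200 bp in the 10 next densest windows. High numbers of regions did not stop at the window borders. The 1 Mb before and after the chromosome 6 window held 203 and 225 regions, and those around the chromosome 11 window 217 and 247. With both windows moved 500 kb away from the chromosome start the order turned, to 240 regions on chromosome 6 and 258 on chromosome 11. When a 1 Mb frame was moved in steps of 50 kb, the fullest frame of chromosome 6 was still at 3000001 to 4000000. On chromosome 11 it lay at 3300001 to 4300000, with 270 regions. The fullest frame of all chromosomes was on chromosome 17 at 4450001 to 5450000, with 285 regions, so the name densest holds for single lists on the fixed 1 Mb grid and not for every way of counting.

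The first question was at which stages the regions were called. Regions called at COT, EM and MM (all-stage regions) were the largest class in both windows. They numbered 140 of 256 in the chromosome 6 window (54.7%, exact 95% binomial interval 48.4 to 60.9) and 122 of 250 in the chromosome 11 window (48.8%, 42.5 to 55.2), against 45.6% of all merged regions. Such intervals cover counting error only. The windows differed by 5.89 percentage points, with a 95% interval from -2.80 to 14.5 (Newcombe's method). Among the 682 other windows the share had a median of 45.1% and a range from the 5th to the 95th percentile of 33.3 to 54.2%. In 32 of them it was above the share of the chromosome 6 window, and in 164 above that of the chromosome 11 window. The 10 next densest windows ran from 41.9 to 51.7%, the upper value at 48000001 to 49000000 of chromosome 10.

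No test was made of these shares. Each stage has 1 list, so no spread between biological replicates is known, and the windows were picked on the peak counts from which the stage classes follow. Regions of a window are not replicates of a condition.

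Among the shares called at each stage, those at COT and at EM differed more between the windows than that at MM. Of the chromosome 6 regions 75% were called at COT, 70.7% at EM and 81.3% at MM. Of the chromosome 11 regions 67.6% were called at COT, 75.6% at EM and 79.6% at MM. The windows differed by 7.40 points at COT (95% interval -0.481 to 15.2) and by -4.90 points at EM (-12.5 to 2.83), and both intervals held 0. Of all merged regions 64.6% were called at COT, 69.1% at EM and 80.7% at MM, so the chromosome 6 window lay above the whole set at COT by more than at the other stages, and the chromosome 11 window at EM. The share called at COT was exceeded by 21 of the 682 other windows for chromosome 6 and by 179 for chromosome 11. For EM the numbers were 250 for chromosome 6 and 66 for chromosome 11. At MM the median of the other windows was 81.1%. With the higher-scoring 50% of each list the order of the windows turned: 70.9% of the chromosome 6 regions and 72.6% of the chromosome 11 regions were then called at COT. At EM the shares were then 70.9% on chromosome 6 and 60.7% on chromosome 11, and all-stage regions made up 44.37% on chromosome 6 and 44.44% on chromosome 11. With both windows moved 500 kb away from the chromosome start, 70.4% of the regions on chromosome 6 and 73.6% on chromosome 11 were called at COT.

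Regions of a single stage differed between the windows in the same directions. COT-only regions numbered 31 in the chromosome 6 window (12.1%) and 16 in the chromosome 11 window (6.40%), against 10.3% of all regions, a difference between the windows of 5.71 points (95% interval 0.622 to 10.9). EM-only regions numbered 10 in the chromosome 6 window (3.91%) and 22 in the chromosome 11 window (8.80%), against 5.72% of all regions, a difference of -4.89 points (-9.42 to -0.613). MM-only regions, the most frequent single-stage class of the genome at 15.2%, numbered 30 in the chromosome 6 window (11.7%) and 27 in the chromosome 11 window (10.8%). With the higher-scoring 50% of each list, a setting added after the values were seen, COT-only regions made up 13.9% of the chromosome 6 window and 13.3% of the chromosome 11 window, and EM-only regions 5.30% of the chromosome 6 window and 6.67% of the chromosome 11 window. With lists of equal length COT-only regions made up 14.8% on chromosome 6 and 11.7% on chromosome 11. With the windows moved in the same way, which was also added later for these classes, COT-only regions made up 9.58% on chromosome 6 and 10.1% on chromosome 11, and EM-only regions 5.42% on chromosome 6 and 5.04% on chromosome 11. Moved 500 kb towards the chromosome start, the chromosome 6 window had 3.45% EM-only regions and the chromosome 11 window 6.54%. Summed, regions of 1 stage made up 27.7% of the chromosome 6 window and 26.0% of the chromosome 11 window, against 31.2% of all regions.

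Regions called at a pair of stages were fewer. Those called at EM and MM but not COT numbered 24 (9.38%) in the chromosome 6 window and 32 (12.8%) in the chromosome 11 window, against 14.5% of all regions. Those called at COT and MM but not EM numbered 14 (5.47%) on chromosome 6 and 18 (7.20%) on chromosome 11, against 5.38%. Those called at COT and EM but not MM numbered 7 (2.73%) on chromosome 6 and 13 (5.20%) on chromosome 11, against 3.27%. The interval of the difference between the windows included 0 for each of these 3 classes, which does not show that the windows are alike. Over all measures 19 such intervals were computed between the windows, unadjusted for their number. Of these, 3 left out 0: COT-only regions, EM-only regions and a share of peptide peaks given further on. The intervals cover counting error over regions, which are not replicates, and are no test. The windows were picked by peak counts, in which chromosome 6 ranked higher at COT and chromosome 11 at EM. The differences in COT-only and EM-only regions are therefore not independent of the choice.

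**Figure D1:**
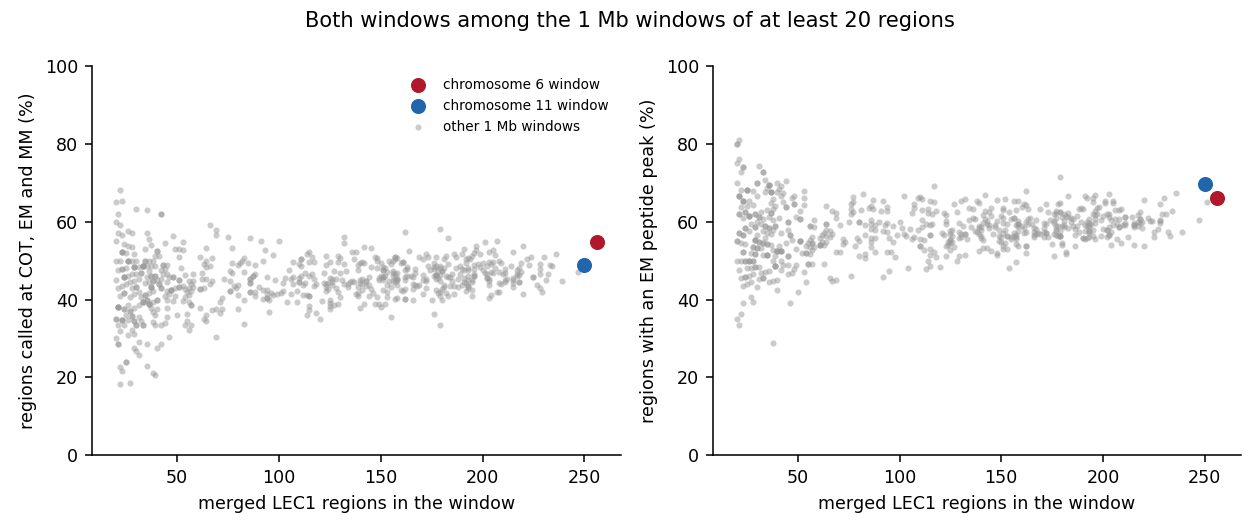
Each point is a 1 Mb window with at least 20 merged LEC1 regions; the x axes give the number of regions and the y axes the share (%) called at all 3 stages (left) or overlapped by an EM peptide antibody peak (right). The chromosome 6 window (red, 256 regions) stands at 54.7% (left) and 66.0% (right), the chromosome 11 window (blue, 250 regions) at 48.8% (left) and 69.6% (right), and the other windows (grey) have medians of 45.1% (left) and 58.3% (right).

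The composition of the other windows moved only a little with their density. The median share of all-stage regions was 43.2% in the 204 windows of 20 to 49 regions and 46.8% in the 73 windows of 200 to 251 regions. The median share of MM-only regions was 17.9% in the sparser and 13.9% in the denser of these groups, and that of regions called at COT was 60.9% in the sparser and 67.1% in the denser. The chromosome 6 and chromosome 11 windows lay above the median of the denser group in all-stage regions and below it in MM-only regions.

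Along the windows the number of regions per 100 kb varied, by more on chromosome 6 than on chromosome 11. This spread was not tested against random placement. Parts of 100 kb held 18 to 34 regions in the chromosome 6 window (SD 5.78 over 10 parts) and 19 to 30 in the chromosome 11 window (SD 3.33). The median over all 9495 such parts of the chromosomes was 5 and the 95th percentile 24. On chromosome 6 the fullest part began 200 kb into the window, with 34 regions, and the next fullest were the outermost parts, with 31 and 33. The 2 parts between 300 and 500 kb were the emptiest, with 19 and 18. On chromosome 11 the fullest part, from 400 to 500 kb, held 30 regions.

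In each window 1 part stood apart in composition. From 300 to 400 kb of the chromosome 6 window 7 of 19 regions were called at all 3 stages and 7 of 19 had a peptide antibody peak (36.8% each). In the other parts of that window 48.1 to 66.7% were called at all 3 stages, and 12 to 24 regions had a peptide peak. From 100 to 200 kb of the chromosome 11 window 7 of 23 regions were called at all 3 stages and 7 of 23 had a peptide peak (30.4% each). In the other parts of that window 40.0 to 65.4% were called at all 3 stages, and 15 to 22 regions had a peptide peak. These parts were singled out after their values were seen.

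**Figure D2:**
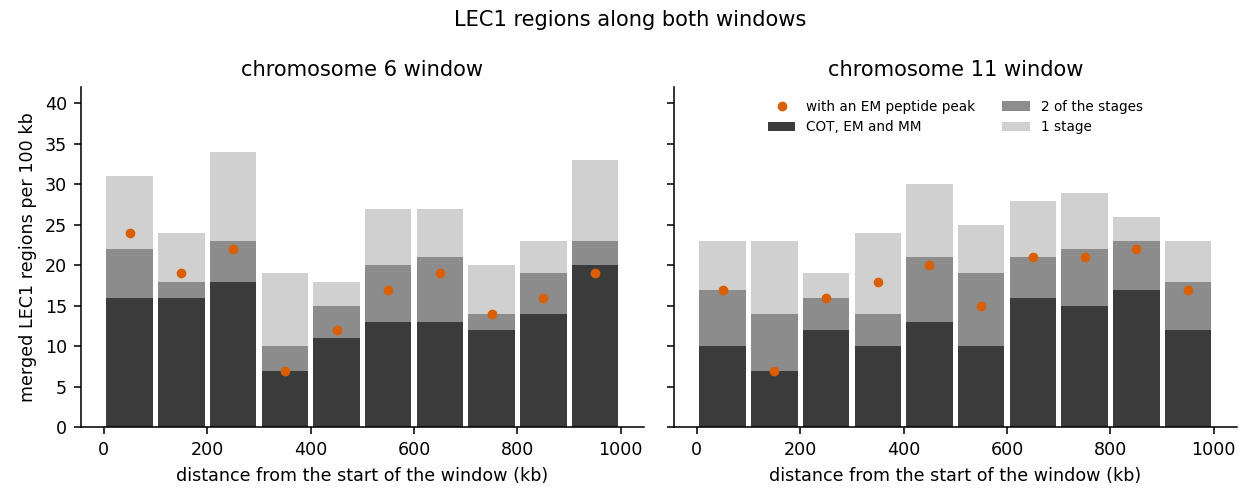
Number of merged LEC1 regions in parts of 100 kb by distance from the start of the window (kb), split by the number of stages at which they were called; orange points give the regions with an EM peptide antibody peak. The chromosome 6 window runs from 18 to 34 regions a part and the chromosome 11 window from 19 to 30; peptide points drop to 7 at 300 to 400 kb on chromosome 6 and at 100 to 200 kb on chromosome 11.

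By the median gap, but hardly by the mean, spacing was tighter on chromosome 6 than on chromosome 11, although the numbers of regions were nearly equal. The median gap from the end of a region to the start of the next was 1700 bp in the chromosome 6 window (exact 95% interval of the median 1400 to 2000) and 2200 bp in the chromosome 11 window (1900 to 2700). The mean gap was 3465 bp on chromosome 6 and 3573 bp on chromosome 11. The 10 next densest windows had median gaps of 1800 to 2650 bp, so that of chromosome 6 was shorter than each of theirs. Mean spacing is fixed by the number of regions that chose the windows, but its evenness is not. The median over the mean gap was 0.49 on chromosome 6 and 0.62 on chromosome 11, with 0.46 to 0.67 in the 10 next densest windows. Of the 682 other windows, 333 had a higher ratio than chromosome 6 and 74 a higher ratio than chromosome 11. The coefficient of variation of the gaps was 1.38 on chromosome 6 and 1.09 on chromosome 11.

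Regions with a neighbour within 1 kb numbered 137 in the chromosome 6 window (53.5%) and 116 in the chromosome 11 window (46.4%), against 42.1% of all merged regions. The difference of 7.12 points had a 95% interval of -1.59 to 15.7. The share was exceeded in 25 of the 682 other windows for chromosome 6 and in 170 for chromosome 11. Over the other windows its median was 49.1% at 200 to 251 regions and 32.3% at 20 to 49 regions. The 10 next densest windows ran from 45.7 to 56.7%, a range that holds both windows. Gaps of up to 2 kb made up 57.3% of the gaps on chromosome 6, 46.2% on chromosome 11 and 48.5% in the 10 next densest windows. For gaps of up to 500 bp the shares were 14.9% on chromosome 6, 15.7% on chromosome 11 and 17.7% in the 10 next densest windows.

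**Figure D3:**
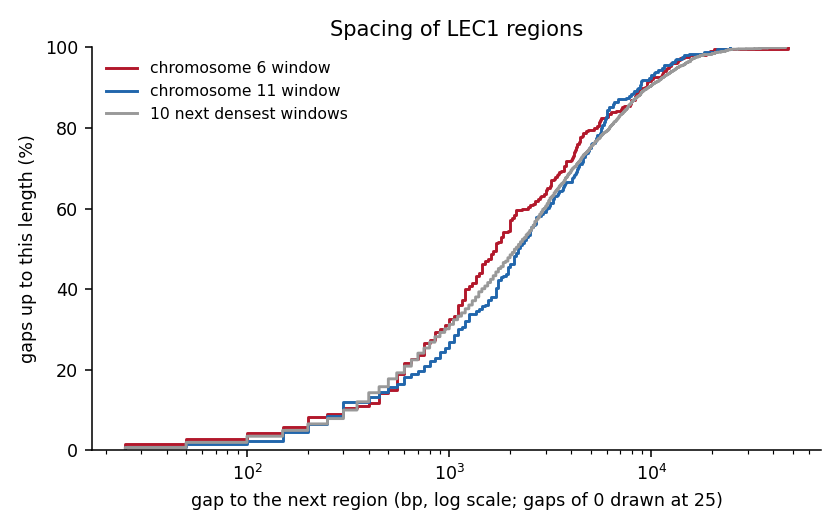
Cumulative share of gaps (%) up to a given length (bp, log scale) between neighbouring merged LEC1 regions. The chromosome 6 window (red) passes 50% at 1700 bp, the chromosome 11 window (blue) at 2200 bp and the 10 next densest windows together (grey) at 2150 bp.

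Neighbouring regions formed short runs rather than long arrays. With a gap under 1 kb as the link, the chromosome 6 window held 122 single regions, 37 runs of 2, 14 of 3 and 4 longer runs. The chromosome 11 window held 140 single regions, 34 runs of 2, 10 of 3 and 3 longer runs. The longest run, of 6 regions, lay on chromosome 6 at 3278251 to 3282150. It began with 2 MM-only regions, followed by 3 regions called at all stages with a peptide peak each, and ended with a COT and MM region. The second on chromosome 6, at 3208101 to 3212100, had 4 regions: a COT-only region of 550 bp, then 3 all-stage regions of which the middle one, 800 bp wide, was the strongest and stood between places 4200 and 7739 in each list.

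On chromosome 11 the first run of 4 lay at 3379851 to 3383150. Its widest member, 1150 bp and called at all stages, was followed by an EM-only region of 100 bp that touched an EM and MM region of 400 bp without overlapping it. A single peptide peak of 400 bp lay across both. The second run, at 3499151 to 3501750, held 1 region of each of 4 classes within 2600 bp: EM and MM, all stages, COT and EM, and MM alone. The all-stage region, at 3499651 to 3500150, was in place 1994 of the peptide list and 4530 at MM, while the other members stood between places 26260 and 54633 wherever they were called.

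The longest gap of the chromosome 6 window, 47300 bp from 3396501 to 3443800, held no peak of any of the 4 lists. The next, of 20450 bp, lay at 3770201 to 3790650. The longest gaps of the chromosome 11 window were 24550 bp, from 3934751 to 3959300, and 21000 bp, from 3252701 to 3273700. No peptide peak lay in these gaps either. Gaps over 10 kb numbered 20 on chromosome 6 and 17 on chromosome 11 and took up 312000 bp of the chromosome 6 window and 245300 bp of the chromosome 11 window. The longest gap of chromosome 6 was longer than any in the 10 next densest windows, where the maximum was 46100 bp. It was shorter than the longest gap in 458 of the 682 other windows, and that of chromosome 11 was shorter than in 672 of them.

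The strongest LEC1 sites of the chromosome 6 window were found at every stage and by both antibodies, as were most high-placed regions of the series. The score the authors gave each peak was used only to rank peaks within a list. The region at 3071301 to 3072150, 850 bp wide, was in place 121 of the 51845 COT peaks, place 866 of the 55140 EM peaks, place 604 of the 64146 MM peaks and place 30 of the 49566 EM peptide peaks. The region at 3031251 to 3032250 led the window in the peptide list, in place 23, and its other places were 156 (COT), 1204 (EM) and 1552 (MM). The region at 3387401 to 3387950 was in place 90 of the peptide list, with COT place 130, EM place 421 and MM place 1291. Because the lists differ in length, places in different lists say nothing of more or less binding.

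Around 600 kb into the chromosome 6 window lay the regions with the highest EM place and the highest MM place of the window, next to each other. The part of 10 kb from 590 to 600 kb held 8 regions, the most of any of the 100 such parts of the window, whose median was 2. The region at 3598051 to 3598550 held EM place 80, the highest of the window, with COT place 1112, MM place 3161 and peptide place 5491. The region before it, at 3597101 to 3597500 and 550 bp away, was in place 184 at MM, the highest MM place of the window. It stood in place 3387 at EM, 26377 at COT and 31330 in the peptide list. A further region, at 3602701 to 3603300, held EM place 697, with COT place 2188, MM place 3177 and peptide place 2957. In the same 10 kb a region at 3594651 to 3595150 was called at COT, in place 8929, and weakly at MM, in place 55107, and not at EM or by the peptide antibody.

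The remaining leading region of the chromosome 6 window, at 3846751 to 3847800, was in place 748 at MM, 903 at EM, 4431 at COT and 1424 in the peptide list. Its peaks spanned 500 bp at COT, 750 bp in 2 peaks at EM and 1050 bp at MM. The widest regions varied in their places. The region at 3822801 to 3824400 was 1600 bp wide as a single MM peak and was split into 2 COT peaks and 3 EM peaks, with a best place of 11579. The region at 3502601 to 3504000 was 1400 bp wide. Regions at 3692401 to 3693600 and at 3843851 to 3845050 were both 1200 bp wide; the second of them was in place 2193 at COT, 2626 at EM, 4724 at MM and, by the peptide antibody, 3406.

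In the chromosome 11 window 1 region led. The region at 3457001 to 3458100, 1100 bp wide, took COT place 305, EM place 1207, MM place 620 and place 166 of the peptide list, within the first 3 of the window in every list. The places of other leading regions varied more between lists. The region at 3145651 to 3146350 was in place 232 at MM and 667 in the peptide list but 5610 at COT and 8664 at EM. The region at 3763251 to 3763850 was in place 452 at MM and 4564 at EM, against 21291 at COT and 11712 in the peptide list. The region at 3008801 to 3009350 held EM place 997, the highest of the window, and stood in place 23063 at COT, 8328 at MM and 7185 in the peptide list.

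Further leading regions of the chromosome 11 window lay at 3544951 to 3545700, in place 756 at COT and 5467 at EM, and at 3650501 to 3651150, in place 1011 at COT and 1923 in the peptide list. The region at 3429651 to 3430500 was in place 1755 at EM but 17549 in the peptide list, and the region at 3033701 to 3034300 in place 1049 of the peptide list, with EM place 2469, MM place 4085 and COT place 4724. The widest region, at 3248351 to 3250000, spanned 1650 bp, with a single peak at EM and with the peptide antibody and 2 peaks at COT and at MM. The region at 3381101 to 3382250 was 1150 bp wide. In each window 10 different regions were named by rank or width, not counting the second region of 1200 bp, and all 10 were called at every stage and had a peptide peak. This follows largely from the choice by score and width. Of all regions with a peak in the highest 10% of a stage list, 96.9% were called at every stage and 98.7% had a peptide peak. Of all regions of 450 bp or more, 87.4% were called at every stage and 94.3% had a peptide peak.

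By count, strong peaks were more frequent on chromosome 6, a difference that was not tested. Of its peaks, 28 COT (14.2%), 26 EM (13.9%), 30 MM (14.2%) and 24 EM peptide peaks (13.4%) were among the highest-scoring 10% of their lists. On chromosome 11 the numbers were 19 COT (10.98%), 16 EM (8.29%), 23 MM (11.4%) and 16 EM peptide peaks (8.70%). In the 10 next densest windows the shares were 9.29 to 9.40%. The higher-scoring 50% of each list held these shares of the chromosome 6 peaks: COT 54.8%, EM 57.8%, MM 53.6% and EM peptide 57.5%. Its shares of the chromosome 11 peaks were COT 57.2%, EM 42.5%, MM 51.0% and EM peptide 42.9%. The chromosome 11 window, first by number in both EM lists, held fewer high-scoring than low-scoring peaks in these lists, and more in the COT list.

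No region of a single stage in either window had a peak in the highest 10% of its list. The highest-placed COT-only region of chromosome 6, chosen like the other examples of this paragraph after values were seen, was 750 bp wide at 3260501 to 3261250 and took place 12621. That of chromosome 11, at 3665401 to 3665700, took place 18358. The highest EM-only regions were in place 28960 (3770001 to 3770200 of chromosome 6) and 35736 (3676301 to 3676500 of chromosome 11). The highest MM-only regions were in place 17137 (3246801 to 3247200 of chromosome 6) and 18172 (3579801 to 3580250 of chromosome 11). Among regions with a peak in the highest 10% of a stage list, 44 of 45 on chromosome 6 and 34 of 35 on chromosome 11 were called at all 3 stages, against 96.9% of such regions in the genome. Both exceptions were EM and MM regions with a peptide peak: the chromosome 6 one, at 3569301 to 3570200, had MM place 5037, and the chromosome 11 one, at 3691951 to 3692400, had MM place 1805. Among those whose best peak was in the lower 50%, 17 of 105 on chromosome 6 (16.2%) and 17 of 116 on chromosome 11 (14.7%) were, against 12.6% in the genome.

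By mean width, regions of both windows were wider than those of most other windows. Width ran from 100 to 1600 bp on chromosome 6, with a median of 350 bp and a mean of 412 ± 246 bp (SD over 256 regions). It ran from 100 to 1650 bp on chromosome 11, with a median of 375 bp and a mean of 402 ± 232 bp (SD over 250 regions). The median over all merged regions was 350 bp, the same as on chromosome 6. Of the 682 other windows, 270 had a lower median than chromosome 6 and 638 a lower median than chromosome 11. The mean was exceeded in 13 of the 682 other windows for chromosome 6 and in 24 for chromosome 11. Their median was 360 bp, and means in the 10 next densest windows ran from 349 to 398 bp. Regions of 1000 bp or more numbered 8 on chromosome 6 (3.13%) and 7 on chromosome 11 (2.80%), against 1.25% of all regions. A region that joins several peaks is wider by construction, and regions with more than 1 peak of a stage numbered 11 on chromosome 6 (4.30%) and 7 on chromosome 11 (2.80%), against 2.24% of all regions.

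**Figure D4:**
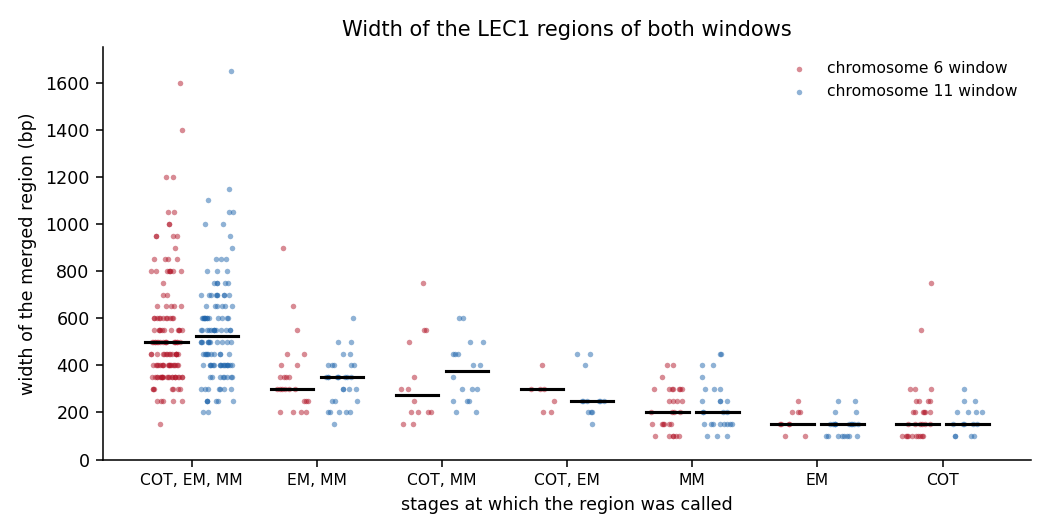
Width of each merged LEC1 region (bp) by the stages at which it was called; points are the 256 regions of the chromosome 6 window (red) and the 250 of the chromosome 11 window (blue), and black bars are medians. Regions called at COT, EM and MM have medians of 500 bp on chromosome 6 and 525 bp on chromosome 11, those of EM alone and of COT alone 150 bp in both windows.

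Width followed the stage class in both windows. A merged region is at least as wide as each peak joined in it, so part of this trend follows from merging across stages. All-stage regions had a median width of 500 bp on chromosome 6 and 525 bp on chromosome 11, against 450 bp for all such regions of the series. EM and MM regions had medians of 300 bp on chromosome 6 and 350 bp on chromosome 11. MM-only regions had a median of 200 bp and COT-only and EM-only regions 150 bp in both windows.

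In all-stage regions with exactly 1 peak at each stage, 129 on chromosome 6 and 115 on chromosome 11, the mean peak width rose from COT to EM to MM. The mean width on chromosome 6 was 364 bp at COT, 414 bp at EM and 434 bp at MM. On chromosome 11 it was 402 bp at COT, 428 bp at EM and 447 bp at MM. Over all 34288 such regions the means were 349 bp at COT, 404 bp at EM and 429 bp at MM. The MM peak was wider than the COT peak in 78 regions on chromosome 6 (60.5%) and in 63 on chromosome 11 (54.8%), against 67.1% in the whole set. It was narrower in 29 on chromosome 6 and 32 on chromosome 11. Over the 642 other windows with at least 10 such regions the share that widened from COT to MM had a median of 66.8%. It was higher than on chromosome 6 in 547 and higher than on chromosome 11 in 609. The steps between were less clear. The EM peak was wider than the COT peak in 56.6% of the regions on chromosome 6 and 49.6% on chromosome 11. The MM peak was wider than the EM peak in 46.5% on chromosome 6 and 48.7% on chromosome 11, with a median difference of 0 bp in both windows. How deeply each library was sequenced is unknown, and its part in these widths was not tested.

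The second question was how many of the regions the peptide antibody also marked at EM. It gave a peak in 169 of 256 chromosome 6 regions (66.0%, exact 95% binomial interval 59.9 to 71.8) and in 174 of 250 chromosome 11 regions (69.6%, 63.5 to 75.2), against 58.7% of all merged regions. The windows differed by -3.58 points (-11.6 to 4.55). The share was exceeded in 59 of the 682 other windows for chromosome 6 and in 18 for chromosome 11. Over the 10 next densest windows it ran from 56.2 to 67.4%, so chromosome 11 was above each of them and chromosome 6 was not. In the peptide list itself the chromosome 11 window took place 1 and the chromosome 6 window place 2. Neither share is therefore independent of how the windows were chosen.

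The shares were also set beside what the stage classes alone would give. If each class had carried a peptide peak as often as in the whole series, 62.8% of the chromosome 6 regions and 61.4% of the chromosome 11 regions would have had one. With class and width together the values were 63.3% for chromosome 6 and 62.7% for chromosome 11. The observed shares were higher than these values in both windows. So was that of the 10 next densest windows together, at 61.6% against 59.7% by class and 60.3% by class and width. On chromosome 6 both values lay within the exact interval of the share (59.9 to 71.8%), and on chromosome 11 both lay below it (63.5 to 75.2%). With the higher-scoring 50% of each list the order of the windows turned, to 63.6% on chromosome 6 and 56.3% on chromosome 11, as it did with both windows moved 500 kb towards the chromosome start, at 65.1% on chromosome 6 and 64.5% on chromosome 11.

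Where the stage list of EM had called the region, the peptide antibody found it in 154 of 181 cases on chromosome 6 (85.1%) and in 149 of 189 on chromosome 11 (78.8%), against 74.7% of all regions called at EM. Where it had not, the windows parted in the other direction. The peptide antibody had a peak in 15 of 75 regions on chromosome 6 (exact 95% interval 11.6 to 30.8%) and in 25 of 61 on chromosome 11 (41.0%, 28.6 to 54.3), against 23.0% of all regions not called at EM. The difference was -21.0 points (-35.6 to -5.51). Of the 447 other windows with at least 20 regions not called at EM, 3 had a higher share than chromosome 11 and 290 a higher share than chromosome 6. This split was looked at after other values had been seen, and settings added later bear on it: with the higher-scoring 50% of each list the shares were 31.8% on chromosome 6 and 32.1% on chromosome 11, and with lists of equal length 30.4% on chromosome 6 and 42.6% on chromosome 11. With both windows moved 500 kb towards the chromosome start they were 25.6% on chromosome 6 and 33.8% on chromosome 11, and away from it 18.2% on chromosome 6 and 28.8% on chromosome 11.

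By class, 130 of 140 all-stage regions on chromosome 6 (92.9%) and 113 of 122 on chromosome 11 (92.6%) had a peptide peak, against 89.2% of all such regions. The EM and MM regions gave 19 of 24 on chromosome 6 (79.2%) and 23 of 32 on chromosome 11 (71.9%), against 58.8%. The COT and MM regions gave 4 of 14 on chromosome 6 (28.6%) and 13 of 18 on chromosome 11 (72.2%), against 49.6%. MM-only regions gave 8 of 30 on chromosome 6 (26.7%) and 12 of 27 on chromosome 11 (44.4%), against 19.6% of all MM-only regions. EM-only regions gave 2 of 10 on chromosome 6 (20%) and 6 of 22 on chromosome 11 (27.3%), against 19.5%. Of the COT-only regions 3 of 31 on chromosome 6 had a peptide peak and 0 of 16 on chromosome 11, against 14.2% of all COT-only regions. The 0 of 16 allows a share of up to 18.8% by 3 counts of the total and 20.6% by the exact interval. Regions of 1 stage together gave 18.3% on chromosome 6 and 27.7% on chromosome 11, against 17.8% of all such regions.

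**Figure D5:**
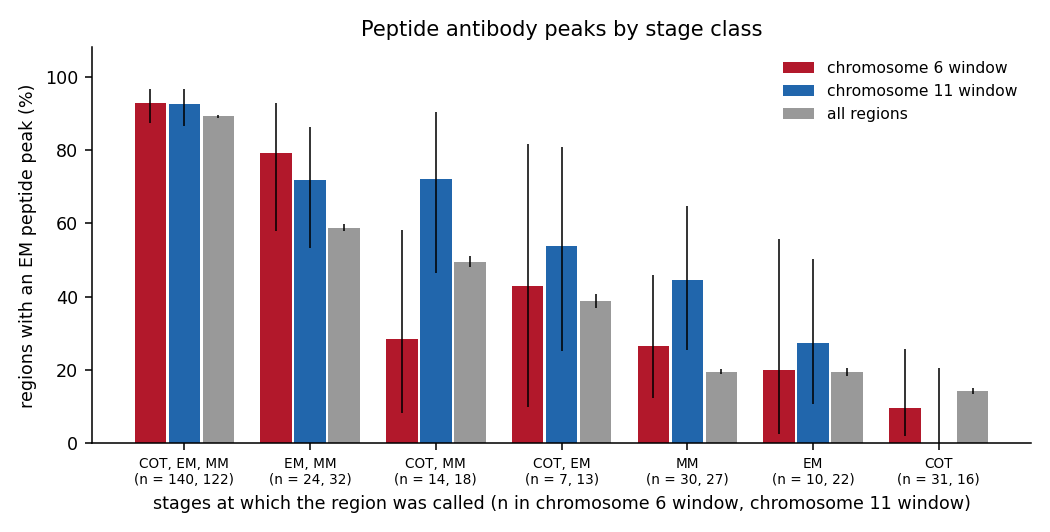
Share of regions (%) with an EM peptide antibody peak by the stages at which the region was called with the antibody against recombinant protein; bars are the chromosome 6 window (red), the chromosome 11 window (blue) and all 78759 regions (grey), with exact 95% binomial intervals that cover counting error only. Regions called at COT and MM stand at 28.6% on chromosome 6, 72.2% on chromosome 11 and 49.6% in all regions, and all-stage regions at 92.9% on chromosome 6, 92.6% on chromosome 11 and 89.2% in all regions.

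The few all-stage regions without a peptide peak, 10 on chromosome 6 and 9 on chromosome 11, were narrower, with median widths of 375 bp on chromosome 6 and 300 bp on chromosome 11, compared with 500 bp on chromosome 6 and 550 bp on chromosome 11 where a peptide peak was present. The highest-placed at EM, chosen after values were seen, lay at 3930401 to 3930800 of chromosome 6, in place 5073 at MM and 10142 at EM. Regions of 450 bp or more had a peptide peak in 91 of 98 cases on chromosome 6 (92.9%) and 95 of 98 on chromosome 11 (96.9%), against 94.3% of all regions of that width. Regions of 100 to 200 bp had one in 11 of 60 cases on chromosome 6 (18.3%) and 19 of 62 on chromosome 11 (30.6%), against 17.1% of all regions of that width. Peptide peaks that met no region of any stage numbered 8 of 179 in the chromosome 6 window (4.47%) and 9 of 184 in the chromosome 11 window (4.89%), against 5.45% of the whole peptide list.

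The window borders did not cut through a region. The first region inside the chromosome 6 window began 13400 bp after the last outside it, an all-stage region of 1900 bp at 2993451 to 2995350. The last inside, a COT-only region at 3997301 to 3997600, was 4250 bp from the next, at 4001851 to 4002300. On chromosome 11 the first region inside began 7900 bp after an EM-only region of 100 bp at 2998651 to 2998750. The last inside was an MM-only region at 3996451 to 3996850, 5150 bp from a COT-only region at 4002001 to 4002150 outside.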

How the data were processed

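The deposited data are peak lists: COT, EM and MM with the antibody against recombinant GmLEC1, and EM with the peptide antibody. Each peak carries a score that the authors computed and deposited; its scale is not given in the sources used here, and it served only for ranks within a list. Per the submitters' processing notes, Bowtie 0.12.7 and SAMtools 0.1.19 were used. Which program called the peaks, with what threshold, and whether replicates were pooled is not given in the sources used here; depth is unknown. All starts and widths are multiples of 50 bp once 1 is added to the written end, so ends were read so; positions are 1-based. Overlapping peaks of the 3 stage lists were merged (1 bp). Windows of 1 Mb were compared by ranks and by the 5th and 95th percentiles over windows of at least 20 regions. Exact binomial and Newcombe intervals (95%) came from SciPy 1.17.1 and statsmodels 0.14.6; tables from pandas 2.3.3 in Python 3.11.15. The merging code was tested on simulated lists. The named regions are the 3 highest-scoring of each list and the 3 widest of each window, the 2 longest runs and gaps, and the regions at the borders. The members and lists were chosen with earlier results of these data known. No genome sequence or annotation of this build was used here, so regions are given by position only, with no gene and no sequence.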

Additional observations from a re-analysis of the deposited data

How the results depend on the processing

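No paired analysis was possible because each stage and antibody has 1 peak list, in which the replicates are not separated; for the same reason no replicate could be left out. Of 146 values recomputed under 9 alternatives, 128 stayed within the exact 95% interval of the reported value or, for numbers of regions, within 1.5 times of it. This total is no measure of robustness, because some alternatives could hardly move a value. Counting any overlap with the window changed none, as no region crossed a border. The higher-scoring 50% of each list moved 12 values out of these bounds and left 6 within them. With the higher-scoring 50% of each list the regions numbered 151 on chromosome 6 and 135 on chromosome 11, the median width was 450 bp in both windows, the median gap 3400 bp on chromosome 6 and 4100 bp on chromosome 11, and the share near a neighbour 36.4% on chromosome 6 and 30.4% on chromosome 11. All-stage regions were then 44.4% and MM regions 73.5% on chromosome 6, and EM regions 60.7% and regions with a peptide peak 56.3% on chromosome 11. In this setting the order of the windows turned for all 5 shares by stage or antibody, while the shorter median gap and the higher share near a neighbour of chromosome 6 held under each alternative run. With lists of equal length (49566 peaks) the share called at MM was 74.7% on chromosome 6 and 72.6% on chromosome 11, and that called at COT 74.4% on chromosome 11. Moving the window by 500 kb gave 68.2% called at EM (towards the chromosome start) and 73.6% called at COT (away from it) on chromosome 11. Ends read as written gave a median width of 349 bp on chromosome 6. In each of these list settings the chromosome 6 window ranked 1 by regions and the chromosome 11 window 2 or 3. The unknown depth limits every count of regions called at a single stage.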
